A study of Mus musculus with 4 samples.

Results

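The mitochondrial genes *mt-Nd1*, *mt-Nd2*, *mt-Nd3*, *mt-Nd4*, *mt-Nd4l*, *mt-Nd5* and *mt-Nd6* encode the subunits of respiratory complex I that are made inside the mitochondrion. They were taken from the deposited expression table by name, and each of the 7 symbols matched a row of its own among 55401 gene rows. The values were compared between heart RNA of 2 wild-type and 2 *Ctcf* heterozygous libraries, both as deposited and relative to the other protein-coding genes of the mitochondrial genome.

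Complex I, or NADH:ubiquinone oxidoreductase, takes electrons from NADH, passes them to ubiquinone and pumps protons across the inner mitochondrial membrane. Its membrane arm is built around the mitochondrially encoded subunits, whereas its peripheral arm and its accessory subunits come from nuclear genes. ND2, ND4 and ND5 are related to antiporters and form proton channels, ND1 lies where the arms meet beside the quinone-binding site, and ND3, ND4L and ND6 lie between ND1 and ND2. The mitochondrial genome is transcribed into long precursor RNAs, which are cut mainly at the tRNAs between the genes, and most of the released mRNAs then receive a poly(A) tail. Heart muscle is packed with mitochondria, and their mRNAs make up a large part of its polyadenylated RNA.

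CTCF is a zinc finger protein that binds DNA and shapes chromatin loops. All mice were 8 weeks old, and the heterozygous animals (*Ctcf* +/R567W) carried the R567W change on a single allele, introduced by CRISPR/Cas9 into mice of the C57BL/6N strain. The allele is carried in the germline and is therefore not restricted to heart muscle. The sex of the mice and the number of mice behind a library are not given in the sources used here, so the spread between these libraries may in part be technical. The p-values below rest on that spread and also on the spread of the other tested genes.

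Expression was given as TPM, a unit of transcript abundance that divides by transcript length and has the same total in every library. The 37 rows of mitochondrial genes held 61.1% to 68.6% of all TPM, and 11 nuclear copies of mitochondrial genes held a further 14.1% to 19.8%. All remaining genes shared 21.2% and 23.99% of the TPM in the wild-type libraries and 14.2% and 17.6% in the heterozygous ones. TPM is a share, so that more for some genes leaves less for the rest, and the median gene differed by -0.35 on the log2 scale as deposited, heterozygous minus wild-type. Dividing each library by a median-of-ratios factor brought this median to -0.01, and values after that step are called scaled TPM. The 22 mitochondrial tRNA genes were listed at 0 in every library. The label of heart was checked with markers: 8 of 8 cardiomyocyte genes were expressed, summing to 27089 and 29461 TPM in wild-type and to 16408 and 21650 TPM in heterozygous libraries, and of 4 skeletal muscle genes 2 were listed at 0 throughout, while *Ckm* and *Acta1* were expressed and the list summed to 309 to 567 TPM. Summed atrial markers stood at 877 and 2966 TPM in wild-type and 1568 and 2964 TPM in heterozygous libraries, erythroid markers at 788 to 1911 TPM, and endothelial, fibroblast, mural and macrophage markers at 5.68 to 71.6 TPM a list. In tissue RNA, fewer cells of a type and less RNA per cell cannot be told apart.

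In the mm10 annotation, *mt-Nd1* (ENSMUSG00000064341.1) spans chrM:2751-3707 and *mt-Nd2* (ENSMUSG00000064345.1) spans chrM:3914-4951. *mt-Nd3* (ENSMUSG00000064360.1) lies at chrM:9459-9806, *mt-Nd4l* (ENSMUSG00000065947.3) at chrM:9877-10173, *mt-Nd4* (ENSMUSG00000064363.1) at chrM:10167-11544 and *mt-Nd5* (ENSMUSG00000064367.1) at chrM:11742-13565, all on the plus strand. *mt-Nd6* (ENSMUSG00000064368.1), at chrM:13552-14070, is the exception and is read from the minus strand. All are protein-coding genes without introns. Their transcripts are 297 (*mt-Nd4l*) to 1824 (*mt-Nd5*) bases long and encode 98 to 607 residues. The switch of strand is visible in base composition, since G makes up 28.1% of *mt-Nd6* and 8.00% to 11.6% of the other members. The *mt-Nd4* transcript ends in a lone t after 459 codons, a stop codon that is known to be completed by the poly(A) tail.

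Some members share bases with a neighbour, which matters for how reads can be assigned. The *mt-Nd4l* and *mt-Nd4* reading frames overlap by 7 bases, and their mRNAs are known to stay joined as a single bicistronic molecule. The ends below are shown 5′ to 3′ as in the GENCODE transcripts of mm10, with the shared bases in capitals, at chrM:10143-10173 and chrM:10167-10197.
mt-Nd4l, last bases: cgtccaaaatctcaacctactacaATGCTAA
mt-Nd4, first bases: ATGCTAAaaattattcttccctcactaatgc

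*mt-Nd5* and *mt-Nd6* overlap by 14 bases on opposite strands, so the capitals in the lines below are reverse complements of each other, at chrM:13528-13565 on the plus strand and chrM:13552-13589 on the minus strand. The strand setting of the authors' counting is not given in the sources used here, so reads from the overlap and from antisense RNA of either gene cannot be told apart.
mt-Nd5, last bases: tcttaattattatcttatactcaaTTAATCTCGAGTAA
mt-Nd6, last bases: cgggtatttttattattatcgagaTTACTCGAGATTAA

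Members also share sequence with nuclear copies on chromosome 1. *Gm28438*, a pseudogene at chr1:24612775-24613119, matches *mt-Nd3* over 345 bases with 1 mismatch, T3C, counted from the first base of *mt-Nd3*. The lines below show the stretch around it, at chrM:9459-9481 on the plus strand and chr1:24613097-24613119 on the minus strand, with the differing base in capitals.
mt-Nd3, around the mismatch: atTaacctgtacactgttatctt
Gm28438, around the mismatch: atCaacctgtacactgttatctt

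As deposited, the members ranged from 1987 to 47404 TPM, and the order of their levels was the same at its lower end in all 4 libraries. *mt-Nd6* was always the lowest and *mt-Nd5* the next lowest, and *mt-Nd4* was above *mt-Nd2* in every library. The upper end was not fixed: *mt-Nd1* led in wild-type 1 and heterozygous 1, *mt-Nd4l* in wild-type 2 and *mt-Nd3* in heterozygous 2. Between *mt-Nd1*, *mt-Nd3* and *mt-Nd4l*, whose means over the 4 libraries were 42084, 38363 and 34659 TPM, neighbours in the order did not differ beyond their spread, and the libraries of *mt-Nd4l* and *mt-Nd4* overlapped too. TPM is already divided by length, so these are levels per transcript length.

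**Figure D1:**
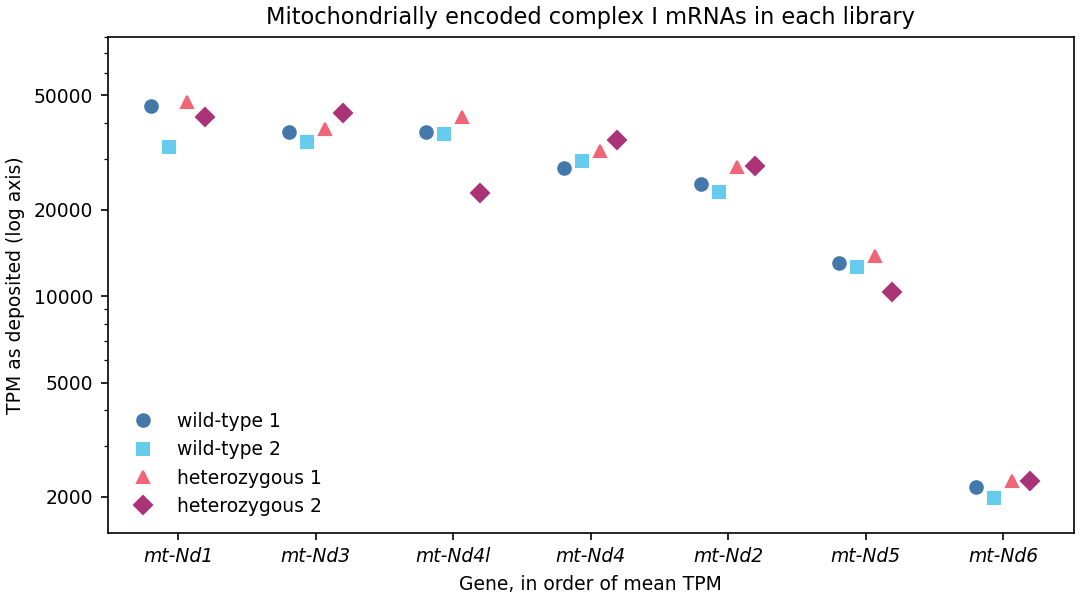
TPM as deposited (log axis) of the 7 mitochondrially encoded complex I genes, ordered by mean, with a point for each of the 2 wild-type and 2 heterozygous libraries. *mt-Nd4l* in heterozygous 2, at 22811 TPM, is the point farthest from the others of its gene, which lie between 36759 and 41890 TPM.

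*mt-Nd1*, which encodes the subunit at the quinone site, stood at 45777 and 32994 TPM in the wild-type libraries and at 47404 and 42161 TPM in the heterozygous ones. The groups overlapped, since wild-type 1 was above heterozygous 2 and wild-type 2 was below all others. The mean was 13.7% higher in heterozygous libraries, at 44783 ± 3707 against 39385 ± 9039 TPM (SD, n = 2 each).

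Of the genes for the proton channel subunits, *mt-Nd2* had 24509 and 22981 TPM in wild-type and 28143 and 28501 TPM in heterozygous libraries. Its groups did not overlap, and the mean was 19.3% higher, at 28322 ± 254 against 23745 ± 1081 TPM. *mt-Nd4* had 27874 and 29497 TPM in wild-type and 32082 and 34879 TPM in heterozygous libraries, a mean difference of 16.7%. Its groups did not overlap either, although the heterozygous libraries lay farther apart than those of *mt-Nd2*. *mt-Nd5* had 13079 and 12599 TPM in wild-type and 13770 and 10300 TPM in heterozygous libraries. Here heterozygous 1 was the highest library and heterozygous 2 the lowest, so the groups overlapped around a mean difference of -6.26%.

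Of the genes for the subunits between ND1 and ND2, *mt-Nd3* had 37322 and 34467 TPM in wild-type and 38098 and 43566 TPM in heterozygous libraries. The groups did not overlap, but heterozygous 1 was only slightly above wild-type 1. *mt-Nd6*, the minus-strand gene, had 2166 and 1987 TPM in wild-type and 2278 and 2277 TPM in heterozygous libraries, a mean difference of 9.67% without overlap. In human cells the *ND6* mRNA is known to carry little or no poly(A), and the libraries were made from RNA captured by its poly(A) tail. *mt-Nd4l* had 37176 and 36759 TPM in wild-type and 41890 and 22811 TPM in heterozygous libraries. Heterozygous 1 was the highest of the 4 libraries and heterozygous 2 was far below the rest, so that the mean difference of -12.5% came from a group with an SD of 13491 TPM, against 295 TPM in wild-type.

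The difference between genotypes was tested on 3 scales with limma on log2 of the value plus 1, with Benjamini-Hochberg adjustment over 10036 genes with a mean of at least 1 TPM, and calls needed a fold change over 1.5 with an adjusted p below 0.05. On TPM as deposited, *mt-Nd2* was 0.25 higher in heterozygous libraries on the log2 scale, *mt-Nd4* 0.22, *mt-Nd1* 0.20, *mt-Nd3* 0.18 and *mt-Nd6* 0.13, whereas *mt-Nd5* and *mt-Nd4l* were at -0.11 and -0.26. None of the 7 was called, with adjusted p from 0.364 to 0.739 and 0 unadjusted p under 0.05, where 0.130% of all tested genes were called. Both heterozygous libraries were above both wild-type libraries for 4 of the 7 members, *mt-Nd2*, *mt-Nd3*, *mt-Nd4* and *mt-Nd6*, which was so for 2.32% of all genes on this scale. That background follows the shift of the median gene to -0.35, and 9.38% of all genes had a positive value.

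On scaled TPM, all 7 members had a positive value, against 48.4% of all genes. Separate groups, with both heterozygous libraries above both wild-type ones, were seen for 5 members and for 23.0% of all genes. This was not particular to complex I. The other 6 mitochondrial protein-coding genes were all positive too, 5 of them with separate groups, and *mt-Atp6* at 0.87 was above every member. *mt-Nd2* had 22642 and 18132 scaled TPM in wild-type and 34286 and 31308 in heterozygous libraries, a log2 difference of 0.69 (SE 0.23, 95% interval 0.15 to 1.23, limma adjusted p = 0.342), which was not called. The values of *mt-Nd4* (0.66, SE 0.21), *mt-Nd1* (0.64, SE 0.29), *mt-Nd3* (0.62, SE 0.23) and *mt-Nd6* (0.57, SE 0.22) were close to it. *mt-Nd5* at 0.33 (SE 0.27) and *mt-Nd4l* at 0.18 (SE 0.35) were the lowest members and the only ones whose groups overlapped. For *mt-Nd4l* the interval ran from -0.66 to 1.02, and so includes differences in both directions.

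None of the 7 was called on scaled TPM either, with limma adjusted p from 0.340 to 0.852, although 4 of them had an unadjusted p under 0.05, as 1234 of the 10036 genes did. Calls were rare on this scale, at 0.0299% of all genes, that is 0 higher and 3 lower. The median over the members was 0.62, against 0.52 over the other 6 mitochondrial protein-coding genes (*mt-Co1*, *mt-Co2*, *mt-Co3*, *mt-Atp6*, *mt-Atp8* and *mt-Cytb*), 0.09 over the mitochondrial rRNA genes and -0.01 over all genes. The size of the difference depended on the scaling, with a median over the members of 0.18 as deposited. Under quantile normalization *mt-Nd1* was at 0.0012, *mt-Nd2* at 0.05, *mt-Nd4* at 0.04, *mt-Nd3* at -0.05 and *mt-Nd6* at 0.61. *mt-Nd5* and *mt-Nd4l* were negative both there and as deposited. Quantile normalization gives each rank the same value in every library, so it removes a shift shared by the highest-ranked genes, whatever its size. It left *mt-Co1* and *mt-Atp8* at a difference of 0, so values near 0 under it do not measure the size of the difference.

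Single libraries also decided the size for some members on scaled TPM. *mt-Nd1* was at 0.98 without wild-type 1 and at 0.29 without wild-type 2, and *mt-Nd5* at 0.04 without heterozygous 1, 0.19 without wild-type 2 and 0.61 without heterozygous 2. *mt-Nd4l* was at -0.34 without heterozygous 1, 0.06 without wild-type 2, 0.29 without wild-type 1 and 0.69 without heterozygous 2. The values of *mt-Nd2*, *mt-Nd3*, *mt-Nd4* and *mt-Nd6* stayed between 0.40 and 0.85 when any library was left out. Some marker lists had positive differences on the same scale, with 4 of 4 atrial genes positive (median 0.82) and 4 of 4 erythroid genes positive (median 0.56). The groups overlapped for every atrial gene and for all erythroid genes but *Hba-a2*. *Nppa* had 394 and 1197 scaled TPM in wild-type and 1008 and 1725 in heterozygous libraries. *Hbb-bs* had 390 and 403 in wild-type and 396 and 825 in heterozygous libraries. The part of these lists in the result was not tested.

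**Figure D2:**
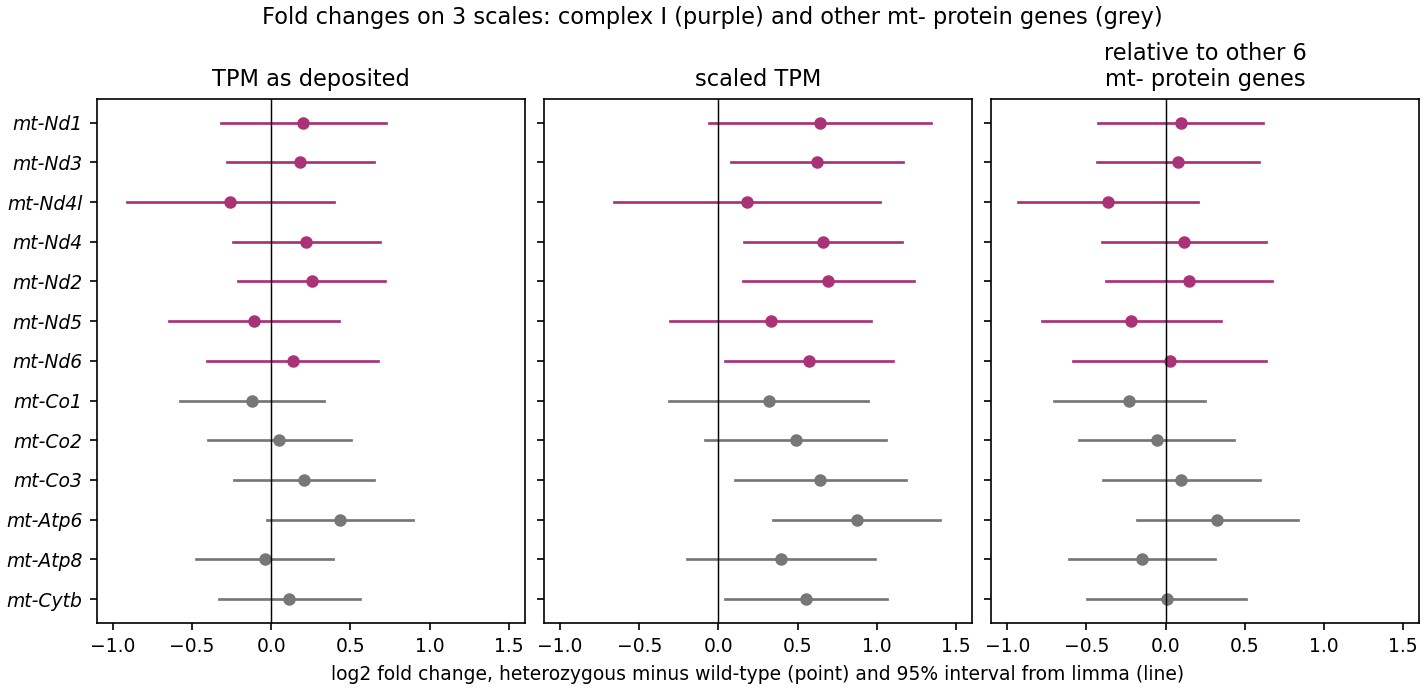
Log2 differences, heterozygous minus wild-type, for the 7 complex I genes (purple) and the other 6 mitochondrial protein-coding genes (grey) on TPM as deposited, on scaled TPM and relative to those 6 genes, with 95% intervals from limma as lines. All 7 complex I points are positive on scaled TPM, and on the relative scale they lie between -0.36 and 0.15 with every interval crossing 0.

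The relative scale asks whether complex I mRNAs moved apart from the rest of the mitochondrial genome, by subtracting in each library the mean log2 value of the other 6 mitochondrial protein-coding genes. On this scale 0 of the 7 members were called (limma adjusted p from 0.278 to 0.939, 0 unadjusted p under 0.05), where 18.1% of all genes were called, nearly all of them lower. The differences were 0.15 for *mt-Nd2*, 0.12 for *mt-Nd4*, 0.10 for *mt-Nd1*, 0.08 for *mt-Nd3* and 0.03 for *mt-Nd6*, each with an SE between 0.25 and 0.30. *mt-Nd5* was at -0.22 (SE 0.27) and *mt-Nd4l* at -0.36 (SE 0.28). Limma takes these SEs partly from the spread of all tested genes, so they do not follow each member's own spread. The SDs of *mt-Nd6* were 0.039 in wild-type and 0.027 in heterozygous libraries, with an SE of 0.30. Those of *mt-Nd4l* were 0.037 and 0.59. With all mitochondrial genes summed with their copies, the difference of every member had a lower value. It was 0.08 for *mt-Nd2*, 0.05 for *mt-Nd4*, 0.03 for *mt-Nd1* and 0.01 for *mt-Nd3*. *mt-Nd6* was then at -0.04, *mt-Nd5* at -0.28 and *mt-Nd4l* at -0.44.

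Among the members, only *mt-Nd2* had both heterozygous libraries above both wild-type ones relative to the other genes, which was so for 0.986% of all genes. That background follows the shift of the median gene to -0.45 on this scale, where 5.02% of all genes had a positive value. Of the subtracted genes, *mt-Co3* (0.10) and *mt-Atp6* (0.33) were also higher without overlap, and *mt-Co1* (-0.23) was lower. The differences of the subtracted genes cancel by construction, so they cannot all go the same way. The values of *mt-Nd2* were -1.42 and -1.45 in wild-type and -1.32 and -1.26 in heterozygous libraries. *mt-Nd5* was the only member with both heterozygous libraries below, which was so for 76.3% of all genes. Its values were -2.33 and -2.31 against -2.35 and -2.73, so the heterozygous libraries were far apart and heterozygous 1 was next to the wild-type. The median over the members was 0.08, and the interval of the member with the widest shift, *mt-Nd4l*, was -0.93 to 0.20.

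The result for *mt-Nd4l* turned on which heterozygous library was kept. Relative to the other 6 genes it stood at -0.82 and -0.77 in wild-type, -0.74 in heterozygous 1 and -1.58 in heterozygous 2. Without heterozygous 2 the difference was 0.05, and without heterozygous 1 it was -0.78 with a limma adjusted p of 0.00375, the latter assuming that the lone heterozygous library varied like the wild-type pair. For this mRNA, genotype and the difference between the 2 heterozygous libraries cannot be told apart.

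Heterozygous 2 stood apart at *mt-Nd4l* and at several other mitochondrial genes, but not at all of them. Set against the mean of the other 3 libraries on the relative scale, it differed by -0.80 for *mt-Nd4l* and -0.40 for *mt-Nd5*, and by 0.21 for *mt-Nd3*, 0.18 for *mt-Nd4*, 0.14 for *mt-Nd2* and 0.04 for *mt-Nd6*. In each of these 6 members it lay outside the range of the other 3 libraries, and in *mt-Nd1* it lay within. The margin was narrow for *mt-Nd6*, at -4.90 against -4.92 in wild-type 1, and for *mt-Nd2*, at -1.26 against -1.32 in heterozygous 1. The share of all genes with heterozygous 2 outside the other 3 libraries was not computed. Members that neighbour each other on the genome thus went opposite ways: *mt-Nd4l* lies between *mt-Nd3* and *mt-Nd4* and was lower while both were higher. Among the other mitochondrial genes, *mt-Rnr2* (-0.87), *mt-Rnr1* (-0.53), *mt-Co1* (-0.34) and *mt-Atp8* (-0.28) were below the range of the other libraries in heterozygous 2, *mt-Atp6* (0.38) and *mt-Co3* (0.12) were above it, and *mt-Co2* (0.05) and *mt-Cytb* (0.06) were within it. The protein-coding genes among these are the subtracted ones, so their differences cancel by construction and cannot all go the same way. The members that were low in this library were thus the shortest and the longest of the 7, at 297 and 1824 bases. These values leave out nuclear copies. *Gm29216*, a copy that matches *mt-Co1* over 483 bases with 1 mismatch, stood at 28290 TPM in heterozygous 2 and at 3636 to 8551 TPM elsewhere. *mt-Co1* itself stood at 85128 TPM in heterozygous 2 and at 99327 to 108223 TPM elsewhere.

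**Figure D3:**
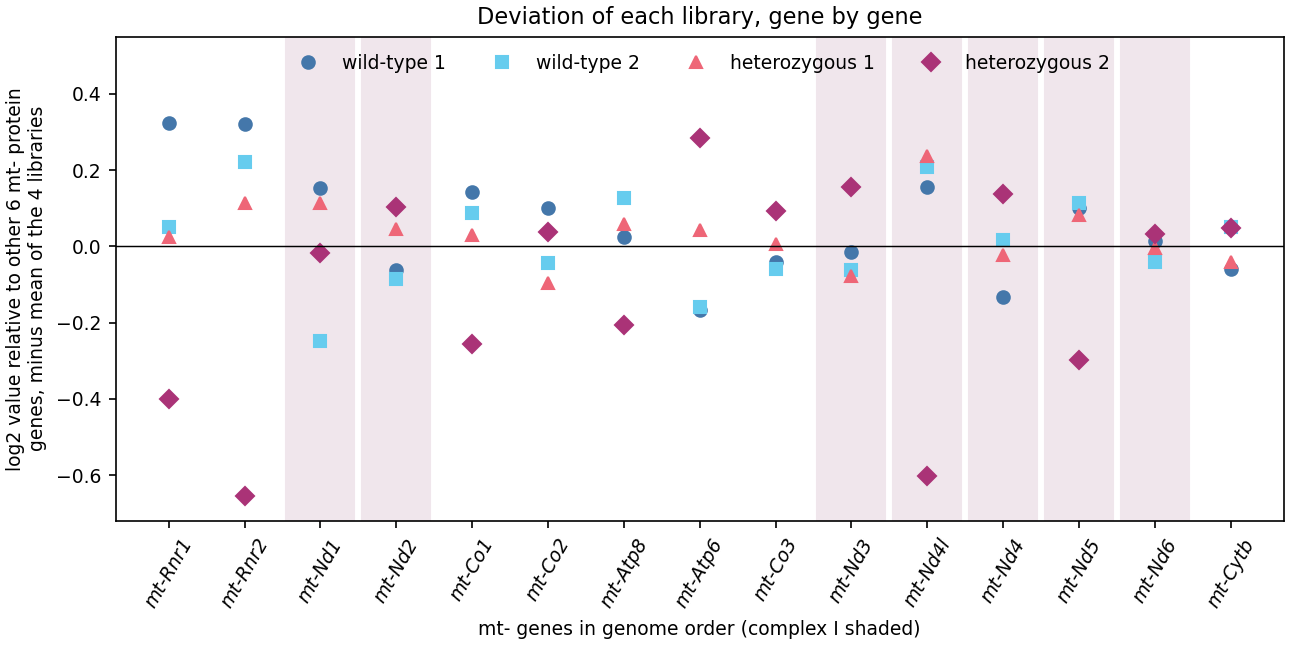
Deviation of each library from the mean of the 4 libraries for 15 mitochondrial genes in genome order, as log2 values relative to the other 6 mitochondrial protein-coding genes, with complex I genes shaded. Heterozygous 2 lies farthest from the other libraries at *mt-Rnr2* and *mt-Nd4l*, and the other 3 libraries stay close together at *mt-Nd4l*, *mt-Nd5* and *mt-Nd6*.

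Ratios of members within a library do not depend on the scaling and show the same departure. *mt-Nd4l* over *mt-Nd4*, the pair on a shared mRNA, was 1.33 and 1.25 in wild-type, 1.31 in heterozygous 1 and 0.654 in heterozygous 2. *mt-Nd3* over *mt-Nd4l* was 1.004 and 0.938 in wild-type, 0.909 in heterozygous 1 and 1.91 in heterozygous 2. In both ratios 3 libraries lay close together and heterozygous 2 did not. *mt-Nd5* over *mt-Nd6*, from opposite strands, was 6.04 and 6.34 in wild-type and 6.05 and 4.52 in heterozygous libraries. *mt-Nd1* over *mt-Nd2* was 1.87 and 1.44 in wild-type and 1.68 and 1.48 in heterozygous libraries, and here the widest gap was between the wild-type libraries. With 2 against 2 libraries 0.333 is the lowest p that permuting the labels allows in a two-sided exact test, so the ratios are given without a test.

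**Figure D4:**
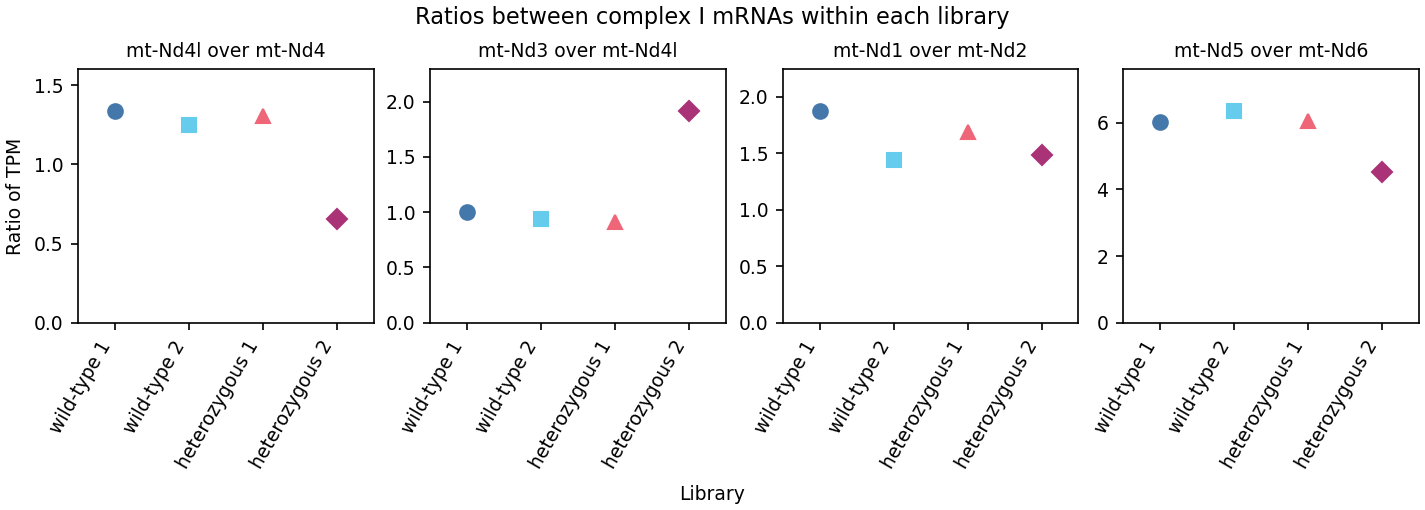
Ratios of TPM between 4 pairs of complex I mRNAs in each of the 4 libraries, on linear axes that start at 0. Heterozygous 2 departs from the other 3 libraries for *mt-Nd4l* over *mt-Nd4* (0.654) and *mt-Nd3* over *mt-Nd4l* (1.91).

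Within the summed TPM of the 7 members, *mt-Nd2* made up 13.04% and 13.4% in wild-type and 13.8% and 15.4% in heterozygous libraries, without overlap. *mt-Nd5* made up 6.96% and 7.36% in wild-type and 6.76% and 5.58% in heterozygous libraries, also without overlap. The shares of the other 5 members overlapped between the genotypes. That of *mt-Nd6* was the steadiest in absolute terms, at 1.12% to 1.23%, and that of *mt-Nd4l* the least steady, at 12.4% in heterozygous 2 and 19.8% to 21.5% elsewhere.

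Complex I as a whole made up 29.5% and 28.4% of the TPM of the 13 mitochondrial protein-coding genes in wild-type and 30.1% and 29.8% in heterozygous libraries. The means were 29.0% ± 0.770 and 29.9% ± 0.238 (SD, n = 2 each), a difference of 0.957 percentage points without overlap. It was 1.501 percentage points without wild-type 1 and 0.413 without wild-type 2. The difference changed sign once the nuclear copies were added to their mitochondrial genes, to -0.586 percentage points, with 29.9% and 29.8% against 30.1% and 28.5%. Without *mt-Nd6* and the genes under 400 bases it was 1.32 percentage points, without overlap. In settings chosen after seeing the data, it was 1.504 percentage points without the short genes *mt-Nd4l* and *mt-Atp8*. Without *mt-Atp8* alone, also chosen then, it was 0.421 with overlap. The sign of the difference thus depended on whether the copies were counted. With them counted the groups overlapped, since heterozygous 1 was above both wild-type libraries and heterozygous 2 below both. *Gm29216*, a copy of *mt-Co1*, stood at 28290 TPM in heterozygous 2 and at 3636 to 8551 TPM elsewhere. Its part in the change of sign was not tested.

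Reads of several members can also be assigned to nuclear copies, which RSEM shares out by estimation. Copies were annotated genes with at least 95% identity to a mitochondrial gene over at least 80% of their length, and 5 of the 11 matched complex I members. Of these, 3 lie side by side in a block on chromosome 1, chr1:24611535-24616197, in which 7 mitochondrial genes are represented. *Gm10222*, at chr1:24612407-24612700, equals *mt-Nd4l* over 294 bases, and only 3 bases of *mt-Nd4l* lie outside the match. *Gm28439*, at chr1:24611535-24612410, equals *mt-Nd4* over 876 bases, with 502 bases of *mt-Nd4* outside.

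The share given to the copy differed between the pairs. *Gm28438* took 39.9% and 46.5% of the summed TPM of *mt-Nd3* and its copy in wild-type and 42.8% and 44.2% in heterozygous libraries. *Gm10222* took 33.8% and 37.0% of the *mt-Nd4l* pair in wild-type and 34.4% and 35.5% in heterozygous libraries. *Gm28439*, the copy of the longer *mt-Nd4*, took 2.94% to 4.20% of the *mt-Nd4* pair. In all 3 pairs the groups overlapped in this share. The copies on other chromosomes were near zero, with *Gm13339* (*mt-Nd2*, 17 mismatches in 510 bases) at 0.62 to 2.01 TPM and *Gm4076* (*mt-Nd5*, 46 mismatches in 954 bases) at no more than 0.03 TPM.

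**Figure D5:**
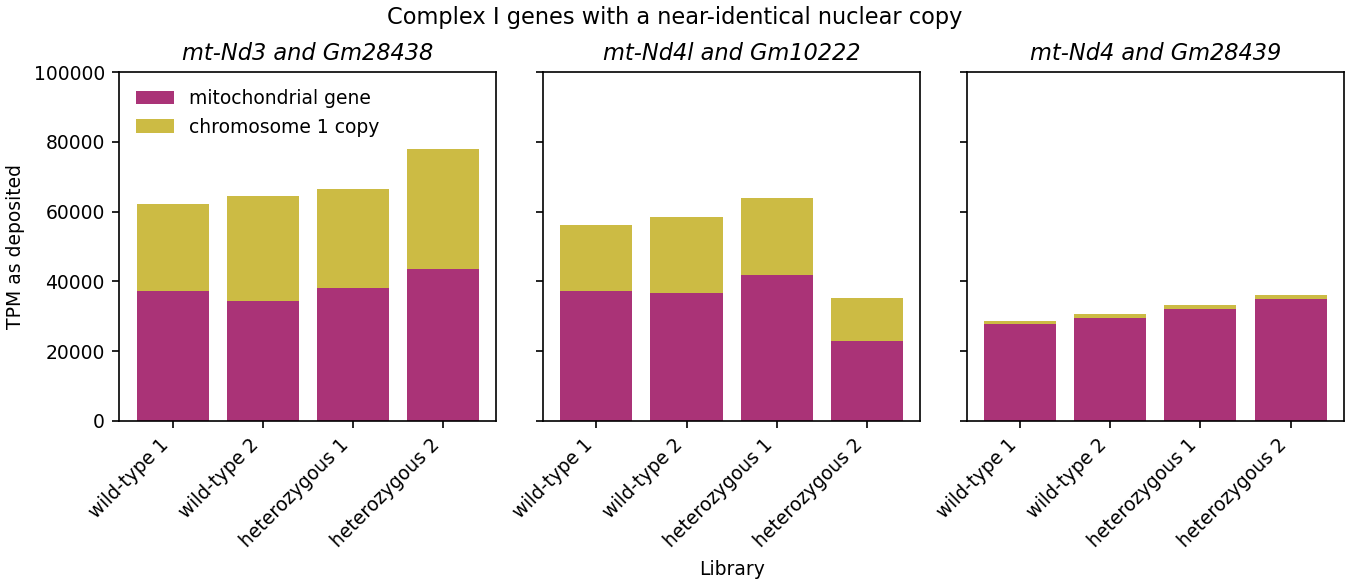
TPM as deposited of *mt-Nd3*, *mt-Nd4l* and *mt-Nd4* (purple) stacked with their near-identical copies on chromosome 1 (yellow), for each library, with bars starting at 0. The stacked bar of *mt-Nd4l* is lowest in heterozygous 2, and that of *mt-Nd3* is highest there.

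Adding the copies left the overlap or separation of the groups as it was for single members. *mt-Nd3* with its copy came to 62140 and 64485 TPM in wild-type and 66585 and 78076 TPM in heterozygous libraries, and *mt-Nd4* with its copy to 28717 and 30791 against 33209 and 36207 TPM, both without overlap. *mt-Nd4l* with its copy came to 56131 and 58363 TPM in wild-type, 63860 TPM in heterozygous 1 and 35375 TPM in heterozygous 2. The copies' own scaled differences were 0.64 for *Gm28438*, 0.67 for *Gm28439* and 0.15 for *Gm10222*, next to 0.62, 0.66 and 0.18 for their mitochondrial partners, and none was called. *mt-Nd1* and *mt-Nd6* had no copy that met the limits.

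The nuclear genes of complex I gave a different picture. The peripheral arm holds the flavin and the iron-sulphur clusters. The 6 nuclear core subunits analysed here all had a negative value on scaled TPM, with a median of -0.35. The median of all genes was -0.01, and 48.4% of all genes had a positive value. None of the 6 subunits was called by limma in either direction. *Ndufv2*, an iron-sulphur subunit at the NADH-oxidising end, had 119 and 148 scaled TPM in wild-type and 74.0 and 103 in heterozygous libraries, a log2 difference of -0.60 (SE 0.23, limma adjusted p = 0.386). *Ndufs8* (-0.45, SE 0.23) and *Ndufs3* (-0.41, SE 0.21) followed, then *Ndufs7* (-0.28), *Ndufv1* (-0.13) and *Ndufs1* (-0.11). The groups were separate for 5 of the 6, all but *Ndufs1*, where 24.0% of all genes had both heterozygous libraries below both wild-type ones on this scale. Without heterozygous 1 the median of these genes was -0.17, and without heterozygous 2 it was -0.56.

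Of the nuclear supernumerary subunits, 28 of 30 tested had a negative value, with a median of -0.22, and of the assembly factors, which build the complex and are not part of it, 12 of 17 tested did, with a median of -0.10. None of either list was called. Both heterozygous libraries were below both wild-type ones for 14 of the 30 supernumerary subunits and 5 of the 17 assembly factors. They were above for 0 of the supernumerary subunits and 3 of the assembly factors. The shares of all genes were 24.0% below and 23.0% above. Without heterozygous 1 these medians were -0.06 and -0.05, and without heterozygous 2 they were -0.41 and -0.20; the median of the assembly factors was -0.16 without wild-type 1. On scaled TPM the mitochondrially encoded members thus had a median of 0.62 and the nuclear core subunits analysed one of -0.35, and as deposited the medians were 0.18 and -0.78. The summed cardiomyocyte markers were lower in both heterozygous libraries as deposited, a scale on which the median of all genes was -0.35. On scaled TPM the median of those 8 genes was -0.30, and 4 were lower without overlap, against the 24.0% of all genes given above. Of the 8, 6 had a negative value, and *Myh6* (0.07) and *Tnni3* (0.03) had a positive one. The part of these markers in the result was not tested.

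The genes that transcribe, cut, stabilise or degrade mitochondrial RNA had no common direction. Of 34 tested, 17 had a positive and 17 a negative value, 0 were called by limma, and their median was 0.00. The 4 with the smallest adjusted p were *Polrmt*, *Hsd17b10*, *Mterf4* and *Polg2*. *Polrmt*, the mitochondrial RNA polymerase, had 12.7 and 12.9 scaled TPM in wild-type and 21.8 and 20.7 in heterozygous libraries, a log2 difference of 0.69 (SE 0.15, limma adjusted p = 0.279) with well-separated groups that still missed the threshold. *Mterf4*, which acts in mitochondrial ribosome assembly, was at 0.43 (SE 0.16). *Hsd17b10*, a subunit of the mitochondrial RNase P that frees the 5′ ends of tRNAs, was at -0.64 (SE 0.21), and *Polg2*, the accessory subunit of the mitochondrial DNA polymerase, at -0.36 (SE 0.14).

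The genes outside the mitochondrial genome and its copies whose profile over the 4 libraries was nearest to the mean of the 7 members were *Uhrf2*, *Cabp1*, *Clk2*, *Clk1* and *Irf9*, among 2552 genes with a mean of at least 10 TPM. The measure was the root mean square difference of centred log2 scaled values, and it was 0.0187 for *Uhrf2* and 0.0489 for *Irf9*. The members themselves lay 0.0613 (*mt-Nd6*) to 0.309 (*mt-Nd4l*) from their own mean. With 4 libraries and this many genes, such nearness is a description of these libraries.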

How the data were processed

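Poly(A) RNA of mouse hearts was sequenced by the authors, who trimmed reads with Trim Galore, aligned them to mm10 with STAR and estimated expression with RSEM. The values used are the deposited TPM per gene, rounded by the authors to 2 decimals. Replicates were not pooled, and the annotation release is not given in the sources used here. No count table was used here, so no count model was fitted. TPM keeps no depth, so neither the reads behind a value nor its counting error is known. Groups followed the sample titles.

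The scales analysed were TPM as deposited, TPM divided by median-of-ratios factors (1.08 and 1.27 in wild-type, 0.821 and 0.910 in heterozygous libraries), and log2 values minus the mean of the other 6 mitochondrial protein-coding genes. A pseudocount of 1 was added. Genes with a mean of at least 1 TPM were modelled in R (4.3.3) by limma (3.58.1), using trended empirical Bayes, two-sided, adjusted by Benjamini-Hochberg. Scripts were tested on simulated data. Copies were found with BLAST+ (2.17.0) among GENCODE M21 transcripts, whose annotation held 55141 of the gene identifiers. Tables were made with Python (3.11.15) and pandas (2.3.3). Named genes were the members, other mitochondrial genes, copies, nuclear core subunits, up to 4 mitochondrial RNA genes with the smallest adjusted p, and the 5 genes nearest to the members' mean profile. 1 nuclear core subunit is not reported here and is not in that list's counts or medians. Members, lists and tests were chosen with earlier results of these data known. Alternatives covered scaling, pseudocount, filter, variance model, pairing, copies and leaving out each library. Libraries correlated at 0.966 to 0.981.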

Additional observations from a re-analysis of the deposited data

How the results depend on the processing

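None of the 7 members was called on scaled TPM under any of 15 alternatives. Values below are log2 differences. As deposited, *mt-Nd4l* was -0.26 and *mt-Nd5* -0.11, and under quantile normalization *mt-Nd3*, *mt-Nd4l* and *mt-Nd5* were -0.053, -0.53 and -0.51. Quantile normalization removes a shift shared by the highest-ranked genes by construction. Leaving out each library in turn, *mt-Nd4l* ranged from -0.34 (without heterozygous 1) to 0.69 (without heterozygous 2) on scaled TPM. Relative to the other 6 genes, leaving out each library gave -0.11 (without wild-type 2) to 0.30 for *mt-Nd1*, -0.039 (without heterozygous 2) to 0.19 for *mt-Nd3*, -0.78 (without heterozygous 1) to 0.054 (without heterozygous 2) for *mt-Nd4l*, and -0.000106 (without wild-type 2) to 0.055 for *mt-Nd6*, which was -0.040 with all copies summed and -0.00229 with *mt-Atp8* left out of the reference, the last chosen after seeing the data. The number of members called on that scale went from 0 to 1 without heterozygous 1 (*mt-Nd4l*). The complex I share differed by -0.586 percentage points with copies summed. The causes were not tested.

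Counts of calls over all genes depended on the setting: on scaled TPM, 0 higher and 3 lower became 2 and 11 as deposited, 11 and 4 without heterozygous 1, 5 and 18 without wild-type 2, and 0 and 0 without a filter. On the relative scale 20 and 1799 became 27 and 118 without heterozygous 1, 22 and 121 without wild-type 2, and 13 and 3676 with copies summed. Same-numbered libraries share only a number (correlation of their deviations 0.101): with the replicate number as a block, 3 higher and 8 lower genes were called on scaled TPM, and 35 and 3068 on the relative scale, but 0 members on either (adjusted p 0.328 to 0.827 and 0.174 to 0.889). The depth of the libraries is unknown.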
